A study of Mus musculus with 8 samples.

Results

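The expression of 8 genes of the PI3K, AKT and mTOR pathway was examined in cultured spermatogonial stem cells. The genes were Akt1, Akt2, Mtor, Tsc1, Tsc2, Rptor, Rictor and Ddit4, and they were taken by symbol from a table of 31010 genes. Each symbol matched 1 gene, and all 8 genes were protein coding and were tested.

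RNA-seq had been carried out on 8 lines of germline stem (GS) cells. In these cultures, spermatogonial stem cells renew themselves in a medium with GDNF and FGF2. ICSI-F1 GS cells (4 lines, numbered 11, 17, 20 and 21) came from first-generation mice born after intracytoplasmic sperm injection, in which a sperm is injected directly into an oocyte. Control-F1 GS cells (4 lines, numbered 29, 37, 44 and 45) came from mice born by natural mating. The comparison asks whether gene expression in these stem cells differs with the way the mice were conceived. The labels give all lines as wild type, name B6 in every title and list the same medium, with insulin, GDNF and FGF2, for all of them. The paper reports that the compound MHY1485 drove self-renewal in its B6-GS cultures. It does not say whether these F1 lines were grown with it. Per the study's methods, the lines were started from CD9-selected cells of mature testes, so each library is a cultured line and not freshly isolated tissue. The age of the mice is not given in the labels, nor whether each line came from its own mouse and litter, so the p-values below measure the spread between these lines. The line titles came in a pair of spellings, called label sets here. In set 1 were lines 29 and 37 of the control and lines 11 and 17 of the ICSI group. The remaining 4 lines, 44 and 45 of the control and 20 and 21 of the ICSI group, made up set 2. The submitters' processing notes listed other versions of the same tools for each set. The set was therefore treated as a possible technical batch, although the sets also hold different lines.

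Values are FPKM, the reads of a gene per kilobase of its exons, scaled by a size for each library. Reads recovered from the FPKM numbered 24218938 to 43413306 per library, and every set 2 library was deeper than every set 1 library. The size was not the read total: for control line 44 it was 32750364, below the 33598353 reads recovered. A gene of 1 kb with 3 reads would stand at 0.0680 to 0.120 FPKM. Markers of germ cells were present, with all 10 of 10 listed genes tested and a summed level of 674 to 1321 FPKM. Markers of fibroblasts, on which GS cells are grown, were also present, and all 14 of 14 were tested. They summed to 235 to 1042 FPKM in the control lines and 322 to 560 FPKM in the ICSI lines. The study's methods for gene expression describe a step on gelatin-coated plates to remove embryonic fibroblasts before collection. How fully it removed them from each line was not tested. Markers of testicular somatic cells summed to 5.39 to 8.62 FPKM, only 3 of 10 passed the minimum of 1 FPKM, and Cyp17a1, an enzyme of the steroid-producing Leydig cells, was at 0 in all 8 lines. In such bulk libraries, fewer cells of a type and less RNA per cell cannot be told apart.

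The pathway passes signals from growth factor receptors to growth and protein synthesis. PI3K makes a lipid at the plasma membrane that recruits the kinase AKT, and AKT restrains the TSC complex, which otherwise keeps the small GTPase RHEB inactive. RHEB activates mTOR in the complex mTORC1, while mTOR in the complex mTORC2 phosphorylates AKT. In spermatogonial stem cells, GDNF and FGF2 signal in part through PI3K and AKT, and mTORC1 activity is linked with the choice between self-renewal and differentiation.

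None of the 8 genes passed the test of ICSI-F1 against control-F1 GS cells, whereas 3 of them differed between the label sets. Tsc2 and Mtor were lower and Ddit4 was higher in set 2, whichever group the lines belonged to. The promoter sequences of these 3 genes are shown because the measured differences concern them. The bases come from the 250 before the RefSeq start site on GRCm38.p6, without any that lie inside the GENCODE gene (0 for Mtor, 3 for Tsc2 and 64 for Ddit4), and are written in the direction of the gene. Capitals mark matches on either strand to ACGTG (a form of the core of sites bound by hypoxia-inducible factors), CCAAT or GGGCGG. The other form of that core, GCGTG, was not searched and is not marked. The motifs TATAAA and CACGTG, the latter of which contains ACGTG, were searched as well.
Mtor (chr4:148448332-148448581, plus strand): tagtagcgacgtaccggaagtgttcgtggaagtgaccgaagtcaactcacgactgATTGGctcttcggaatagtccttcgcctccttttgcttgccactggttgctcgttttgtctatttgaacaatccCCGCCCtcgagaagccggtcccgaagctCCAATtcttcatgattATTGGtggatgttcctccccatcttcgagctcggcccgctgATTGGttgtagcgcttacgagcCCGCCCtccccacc
Tsc2 (chr17:24632631-24632877, minus strand): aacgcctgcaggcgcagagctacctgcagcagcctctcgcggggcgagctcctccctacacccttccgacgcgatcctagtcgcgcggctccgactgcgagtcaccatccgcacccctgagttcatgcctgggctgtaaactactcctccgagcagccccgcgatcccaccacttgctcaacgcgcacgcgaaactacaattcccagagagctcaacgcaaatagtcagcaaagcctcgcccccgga
Ddit4 (chr10:59951835-59952020, minus strand): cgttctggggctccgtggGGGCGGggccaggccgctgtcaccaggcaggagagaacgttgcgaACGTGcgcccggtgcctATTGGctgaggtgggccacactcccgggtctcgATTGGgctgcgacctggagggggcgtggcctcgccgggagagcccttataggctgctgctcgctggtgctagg

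The Mtor window held CCAAT 4 times and GGGCGG 2 times, and the Tsc2 window held none of the 5 motifs. For Ddit4, counted from the RefSeq start site, which lies beyond the 64 bases left out after the printed window, ACGTG began 187 bases upstream, CCAAT began 170 and 137 bases upstream, and GGGCGG began 232 bases upstream. Over the 250 bases before the start sites, ACGTG was found in 3 of the 12 promoters of the 8 genes (1 each of Akt2, Rptor and Ddit4), CCAAT in 3, GGGCGG in 5, and TATAAA and CACGTG in 0. Among all 32851 promoters of the same length, counted singly as well, the shares with a match were 16.6% for ACGTG, 33.8% for CCAAT, 32.7% for GGGCGG, 12.4% for TATAAA and 6.02% for CACGTG. These are matches of letters, not bound sites.

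Akt1 and Akt2 encode a pair of AKT kinases. Akt1 (ENSMUSG00000001729, chr12:112653821-112674884, minus strand, GRCm38) stood at 26.5, 28.6, 22.8 and 19.7 FPKM in control lines 29, 37, 44 and 45. In ICSI lines 11, 17, 20 and 21 it stood at 26.1, 23.8, 19.8 and 23.2 FPKM. The ICSI values all lay within the range of the control values. Akt2 (ENSMUSG00000004056, chr7:27591552-27640826, plus strand) stood at 19.1, 17.2, 15.6 and 14.5 FPKM in the control lines and at 16.8, 15.2, 15.3 and 14.4 FPKM in the ICSI lines, in the same order. Its groups overlapped too, and it had the narrowest spread of the 8 genes, with a highest value 1.32 times the lowest.

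Mtor encodes the kinase shared by both mTOR complexes. It lies at chr4:148448611-148557683 on the plus strand (ENSMUSG00000028991), and stood at 35.7, 40.5, 25.4 and 28.3 FPKM in control lines 29, 37, 44 and 45. It stood at 39.7, 36.04, 24.1 and 32.8 FPKM in ICSI lines 11, 17, 20 and 21. The groups overlapped, and in each group the set 1 lines were the higher pair. Angptl7 lies within Mtor on the opposite strand but shares 0 exon bases with it.

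Rptor and Rictor encode the subunits that define mTORC1 and mTORC2. Rptor (ENSMUSG00000025583, chr11:119602905-119899576, plus strand) stood at 6.32, 7.60, 5.90 and 5.93 FPKM in the control lines. In the ICSI lines it stood at 7.46, 7.08, 5.24 and 6.26 FPKM. Rictor (ENSMUSG00000050310, chr15:6708379-6800401, plus strand) stood at 16.8, 23.5, 16.8 and 16.8 FPKM in the control lines and at 21.8, 17.7, 13.2 and 16.4 FPKM in the ICSI lines. Control line 37 stood apart from the other control lines, which were nearly equal, and ICSI line 11 was close to it. There was more Rictor than Rptor in every line, by 2.50 to 3.10 times per kilobase. The exon lengths behind this, 13471 bases for Rptor and 16930 for Rictor, count all annotated exons, whether or not these cells use them. An antisense gene, Rptoros, shares 84 exon bases with Rptor (0.624% of the exon length of Rptor). Whether the libraries kept the strand is uncertain, so reads there could belong to either gene.

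Tsc1 and Tsc2 encode the subunits of the TSC complex, of which TSC2 inactivates RHEB. Tsc1 (ENSMUSG00000026812, chr2:28641228-28691167, plus strand) stood at 7.39, 7.50, 5.17 and 6.20 FPKM in the control lines and at 7.12, 6.69, 5.09 and 5.91 FPKM in the ICSI lines. Tsc2 (ENSMUSG00000002496, chr17:24595816-24632630, minus strand) stood at 24.0, 28.2, 13.7 and 17.8 FPKM in the control lines and at 24.1, 22.8, 13.5 and 16.5 FPKM in the ICSI lines. For both genes, every set 1 line was above every set 2 line, and the ICSI and control values overlapped. Pkd1, on the opposite strand, shares 693 exon bases with Tsc2 (7.20% of the exon length of Tsc2) and stood at 2.35 to 7.98 FPKM, so a part of the Tsc2 reads is uncertain.

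Ddit4 encodes REDD1, a protein induced by low oxygen, glucocorticoids and other stresses that restrains mTORC1 through the TSC complex. It lies at chr10:59949669-59951834 on the minus strand (ENSMUSG00000020108) and was by far the most variable of the 8 genes. It stood at 31.1, 8.66, 37.1 and 37.8 FPKM in control lines 29, 37, 44 and 45. It stood at 10.7, 10.6, 27.3 and 50.4 FPKM in ICSI lines 11, 17, 20 and 21. In set 1, control line 29 was high and the other 3 lines were low, and in set 2 all 4 lines were high. Its highest value was 5.82 times its lowest. On the log2(FPKM + 1) scale its range was 2.41, and 1.01% of the 12000 genes tested had a range as large, against a median range of 0.62. Tsc2 followed with a range of 1.01, reached by 17.6% of the genes tested. The lowest read number behind any value was 379, for Ddit4, where counting error alone is 5.14%.

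**Figure D1:**
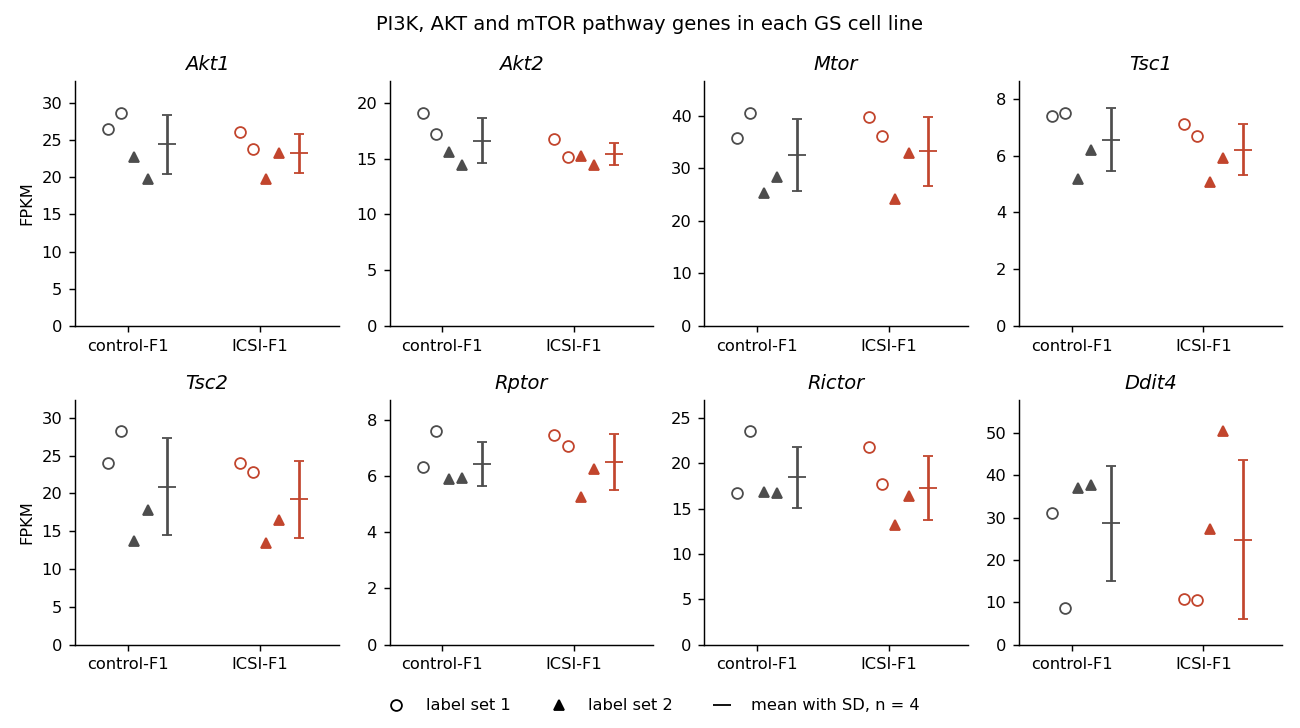
FPKM of each gene (vertical axes, starting at 0) in the control and ICSI lines, 1 point per line, with the symbol marking the label set and a bar at the group mean. The groups overlap for all 8 genes, Tsc2 separates by label set, and Ddit4 runs from 8.66 to 50.4 FPKM.

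Ordered by their mean FPKM over the 8 lines, the genes were Mtor (32.8), Ddit4 (26.7), Akt1 (23.8), Tsc2 (20.1), Rictor (17.9), Akt2 (16.0), Rptor (6.48) and Tsc1 (6.38). The median of all genes tested was 8.58 FPKM. Of neighbours in this order, the ranges of Akt2 and Rptor did not overlap, and all other neighbours overlapped. Mtor exceeded Ddit4 in 4 of 8 lines and Rptor exceeded Tsc1 in 6 of 8 lines, so the order of these neighbours depended on the line. Akt1 exceeded Tsc2 in all 8 lines. The order of different genes also depends on the exon lengths that FPKM divides by.

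The ICSI and control values did not differ beyond the spread between lines for any of the 8 genes. Over all 8 lines the largest difference was that of Ddit4, at 28.7 ± 13.7 FPKM in control-F1 and 24.8 ± 18.8 FPKM in ICSI-F1 GS cells (SD, n = 4 each). Its log2 difference, ICSI minus control on the log2(FPKM + 1) scale, was -0.30 (SE 0.57) with a 95% interval of -1.59 to 0.98. Leaving out 1 line moved it to between -0.78 (without control line 37) and -0.016 (without ICSI line 17). It was no longer the largest without ICSI line 11, ICSI line 17, control line 44 or control line 45, where it was -0.020, -0.016, -0.12 and -0.11 and Tsc2 was at -0.22, -0.19, -0.28 and -0.16. Mtor stood at 32.5 ± 6.89 FPKM in the control lines and 33.2 ± 6.64 FPKM in the ICSI lines (SD, n = 4 each), with a log2 difference of 0.03 (95% interval -0.39 to 0.45). Tsc2 stood at 20.9 ± 6.45 and 19.2 ± 5.05 FPKM (SD, n = 4 each), with a log2 difference of -0.10 (95% interval -0.65 to 0.45).

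For Akt1 the means were 24.4 ± 3.96 FPKM in the control lines and 23.2 ± 2.63 FPKM in the ICSI lines, a log2 difference of -0.06 (95% interval -0.37 to 0.25). For Akt2 the means were 16.6 ± 2.02 and 15.4 ± 0.978 FPKM, a log2 difference of -0.10 (95% interval -0.34 to 0.15). These intervals bound the difference of the AKT genes more closely than that of Ddit4. Tsc1 (6.56 ± 1.10 and 6.20 ± 0.896 FPKM), Rptor (6.44 ± 0.796 and 6.51 ± 0.983 FPKM) and Rictor (18.5 ± 3.38 and 17.3 ± 3.55 FPKM) had log2 differences of -0.07, 0.01 and -0.09 (all SD, n = 4 each). The 95% intervals were -0.40 to 0.26 for Tsc1, -0.29 to 0.31 for Rptor and -0.47 to 0.28 for Rictor.

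By limma, 0 of the 8 genes passed an adjusted p of 0.05, and the adjusted p was 1.00 for each. Across all 12000 genes tested, 0 passed (0%) and 55 (0.458%) fell under 0.05 without adjustment, of which 0 were among the 8. With so small a share, 0 was the likely count for any 8 of the genes tested. limma-voom on the recovered reads also called 0 of the 8. The exact permutation p-values of the single genes (two-sided, 70 assignments) ran from 0.314 for Akt2 to 1.00 for Rptor, where the smallest p that 4 lines against 4 can give is 0.0286. For 0 of the 8 genes were the groups without overlap, against 0.442% of all genes tested. The 8 genes had a median log2 difference of -0.08, and the median of all genes was -0.01.

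These intervals include the spread between the label sets described below. With the label set added to the fit, the differences stayed the same by construction and the intervals narrowed, to -0.36 to 0.15 for Tsc2, -0.22 to 0.28 for Mtor and -1.10 to 0.50 for Ddit4. By limma, 0 of the 8 genes and 0 of all genes then passed the adjusted threshold. At an unadjusted p under 0.05 there were 140 of all genes and 0 of the 8, whose lowest unadjusted p was 0.292, for Akt2.

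Within label set 1 the log2 difference of Ddit4, ICSI minus control, was -0.59, and within set 2 it was -0.01. The larger value rested on control line 29, which also had the highest summed level of fibroblast markers (1042 FPKM, against 322 to 450 FPKM in the other 3 set 1 lines). In set 2, control lines 44 and 45 had sums of 868 and 235 FPKM and Ddit4 at 37.1 and 37.8 FPKM. The part of the fibroblast markers in the value of line 29 was not tested. For the other 7 genes the differences ran from -0.18 to 0.06 within set 1 and from -0.17 to 0.07 within set 2. The interaction of group and label set passed for 0 of the 8 genes by limma, and 0 of the 8 had an unadjusted p under 0.05, against 1.23% of all genes. The interaction of Ddit4 was 0.58 on the log2 scale, with a 95% interval of -1.09 to 2.26.

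Between the label sets, Tsc2 stood at 24.8 ± 2.37 FPKM in set 1 and 15.4 ± 2.11 FPKM in set 2 (SD, n = 4 each), 1.61 times higher in set 1. Mtor stood at 38.0 ± 2.46 and 27.7 ± 3.86 FPKM, 1.37 times higher in set 1. Ddit4 stood at 15.3 ± 10.6 and 38.1 ± 9.46 FPKM, 2.50 times higher in set 2. These 3 genes passed the adjusted threshold, 1 of them higher and 2 lower in set 2. Of all genes tested, 16.0% passed, with 10.2% higher and 5.76% lower in set 2, so many genes outside the pathway differed as well. After quantile normalization, 50.8% of the genes called were higher in set 2, against 64.0% as tested here, and the 3 genes kept their directions. What distinguishes the sets, whether the lines themselves and their cell state, handling, sequencing or processing, cannot be told apart here.

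On the log2(FPKM + 1) scale, set 2 minus set 1 was -0.66 for Tsc2 (SE 0.11, adjusted p = 0.0128 by limma). It was -0.45 for Mtor (SE 0.11, adjusted p = 0.0311 by limma) and 1.42 for Ddit4 (SE 0.35, adjusted p = 0.0318 by limma). By exact permutation, the p-value was 0.0571 for Ddit4 and 0.0286, the smallest possible, for Tsc2 and Mtor. The directions held within each group. Tsc2 differed by -0.70 among the control lines and by -0.62 among the ICSI lines, Mtor by -0.49 and -0.41, and Ddit4 by 1.13 and 1.71. Without control line 37 the adjusted p of Tsc2 was 0.0516, and without ICSI line 11 it was 0.0542. The call of Mtor was lost on leaving out any line other than ICSI line 21 (adjusted p 0.0527 to 0.100). That of Ddit4 was lost on leaving out any line other than control line 29 or ICSI line 21 (adjusted p 0.0521 to 0.0943). In Ddit4 the sets overlapped through control line 29, and without it the log2 difference was 1.82.

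The other 5 genes did not pass. Akt1 stood at 26.3 ± 1.97 FPKM in set 1 and 21.4 ± 1.90 FPKM in set 2 (log2 difference -0.29, adjusted p = 0.0666 by limma). For Tsc1 the means were 7.17 ± 0.358 and 5.59 ± 0.552 FPKM (log2 difference -0.31, adjusted p = 0.0588 by limma). Both came close to the threshold, and Akt1 passed it after quantile normalization (adjusted p = 0.0322 by limma), as Tsc1 did after quantile normalization (0.0448) and in limma-voom (0.0415). Rptor, Rictor and Akt2 had log2 differences of -0.25, -0.31 and -0.18, with adjusted p of 0.115, 0.122 and 0.170. A total of 5 genes (Akt1, Mtor, Tsc1, Tsc2 and Rptor) were lower in every set 2 line than in any set 1 line, against 10.8% of all genes tested, and 0 were higher in every set 2 line. Among all genes, 26.8% had no overlap between the sets in either direction. The median log2 difference of the 8 genes was -0.30, and that of all genes was 0.03.

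**Figure D2:**
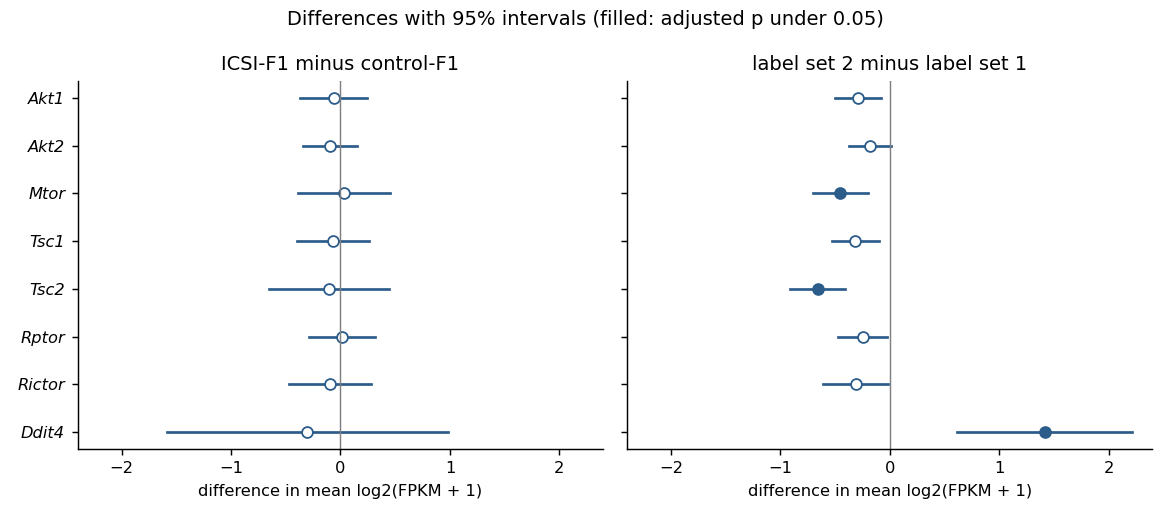
Log2 differences of the 8 genes on the log2(FPKM + 1) scale (horizontal axes) with 95% intervals, for ICSI minus control and for label set 2 minus set 1. All intervals of ICSI minus control include 0, and between the sets the values run from -0.66 for Tsc2 to 1.42 for Ddit4.

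The germ cell markers also differed between the sets. Their sum was 674 to 857 FPKM in set 1 and 1049 to 1321 FPKM in set 2. Of these markers, 7 of 10 were called higher in set 2, against 10.2% of all genes. Gfra1 and Ret, which are also counted among the receptors below, were among the 7. Zbtb16 differed by 0.018 on the log2 scale and was not called. The fibroblast markers summed to 322 to 1042 FPKM in set 1 and to 235 to 868 FPKM in set 2, with 0 of 14 called by limma. The part of either in the differences of Tsc2, Mtor and Ddit4 was not tested.

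Ratios within a library do not depend on its scaling. The ratio of Akt1 to Akt2 was 1.39 to 1.66 in set 1 and 1.29 to 1.61 in set 2, so its values overlapped. The ratio of Tsc2 to Tsc1 was 3.25 to 3.76 in set 1 and 2.65 to 2.86 in set 2. That of Ddit4 to Tsc2 was 0.307 to 1.297 in set 1 and 2.02 to 3.05 in set 2. The latter 2 ratios were without overlap between the sets. These ratios were described and not tested.

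A further 71 genes of the pathway, from receptors to targets of mTOR, were listed for comparison, and 66 of them were tested. By limma, 0 of the 66 passed between ICSI and control, against 0% of all genes. At the unadjusted threshold of 0.05 there were likewise 0, against 0.458% of all genes. The 66 genes had a median log2 difference of -0.02. The 3 with the largest differences were Rragd, a GTPase that brings mTORC1 to the lysosome, Pik3r1, the regulatory subunit p85 alpha of PI3K, and Gsk3b, a kinase inhibited by AKT. Rragd stood at 49.1 ± 6.61 FPKM in the control lines and 41.3 ± 9.94 FPKM in the ICSI lines (log2 difference -0.27). Pik3r1 stood at 5.37 ± 0.754 and 6.61 ± 0.838 FPKM (0.26), and Gsk3b at 17.9 ± 7.28 and 20.3 ± 2.92 FPKM (0.25; all SD, n = 4 each). None of these differences passed the test. That of Gsk3b was 0.58 within set 1 and -0.08 within set 2. Its interaction of group and set had an unadjusted p of 0.00662 by limma, the 1 such value under 0.05 among the 66 genes against 1.23% of all genes, and an adjusted p of 1.00.

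Between the label sets, 13 of the 66 passed, 9 higher and 4 lower in set 2, against 10.2% and 5.76% of all genes. Leaving out 1 line changed this number to between 2 (without control line 37 or ICSI line 11) and 18 (without ICSI line 21). It was 6 without control line 29, 5 without control line 45, 4 without ICSI line 17 or ICSI line 20 and 3 without control line 44. Of the 9 receptors and adaptors tested, 3 were called higher and 1 lower. Irs2, an adaptor of the insulin and IGF1 receptors, rose from 4.52 to 7.87 FPKM in set 1 to 12.8 to 17.3 FPKM in set 2 (log2 difference 1.163, adjusted p = 0.00913 by limma). Gfra1, the receptor that binds GDNF, rose from 38.4 to 45.5 FPKM to 48.5 to 80.4 FPKM (0.67, adjusted p = 0.0216 by limma). Kit, the receptor of stem cell factor and a mark of differentiating spermatogonia, fell from 5.90 to 9.56 FPKM to 2.402 to 5.31 FPKM (-0.80, adjusted p = 0.0351 by limma).

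Of the 9 PI3K genes, 0 passed. Pik3ca, the catalytic subunit p110 alpha, had a log2 difference of 0.32 (adjusted p = 0.109 by limma). Of 5 phosphatases, 1 was called higher. This was Inppl1 (SHIP2), which acts on the lipid made by PI3K and rose from 8.69 to 11.3 FPKM in set 1 to 13.7 to 25.9 FPKM in set 2. Pdpk1, the kinase PDK1 that activates AKT, had a difference of -0.07 and did not pass. Rheb rose from 9.38 to 9.96 FPKM to 11.2 to 13.1 FPKM, while its paralog Rhebl1 fell from 12.5 to 16.7 FPKM to 8.35 to 11.8 FPKM.

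Of the 5 other genes of the mTOR complexes that were tested, 0 passed. Mlst8, a subunit of both complexes, had a log2 difference of -0.24. Of the 17 genes of amino acid sensing, 2 were called higher and 2 lower. Rragc, which encodes a member of the Rag GTPases that recruit mTORC1, rose from 8.71 to 9.46 FPKM to 13.1 to 17.4 FPKM. Nprl3 and Depdc5, subunits of the GATOR1 complex that restrains those GTPases, fell from 4.33 to 4.99 FPKM to 2.35 to 3.79 FPKM and from 13.3 to 17.5 FPKM to 9.96 to 12.1 FPKM. Of the 2 energy and stress genes tested, 0 were called by limma, and of 15 downstream genes, 2 were called higher. These were Gsk3b, which rose from 11.6 to 18.2 FPKM to 21.5 to 25.8 FPKM, and Eif4ebp2, a repressor of translation that mTORC1 inactivates, which rose from 33.7 to 47.4 FPKM to 54.5 to 63.1 FPKM.

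**Figure D3:**
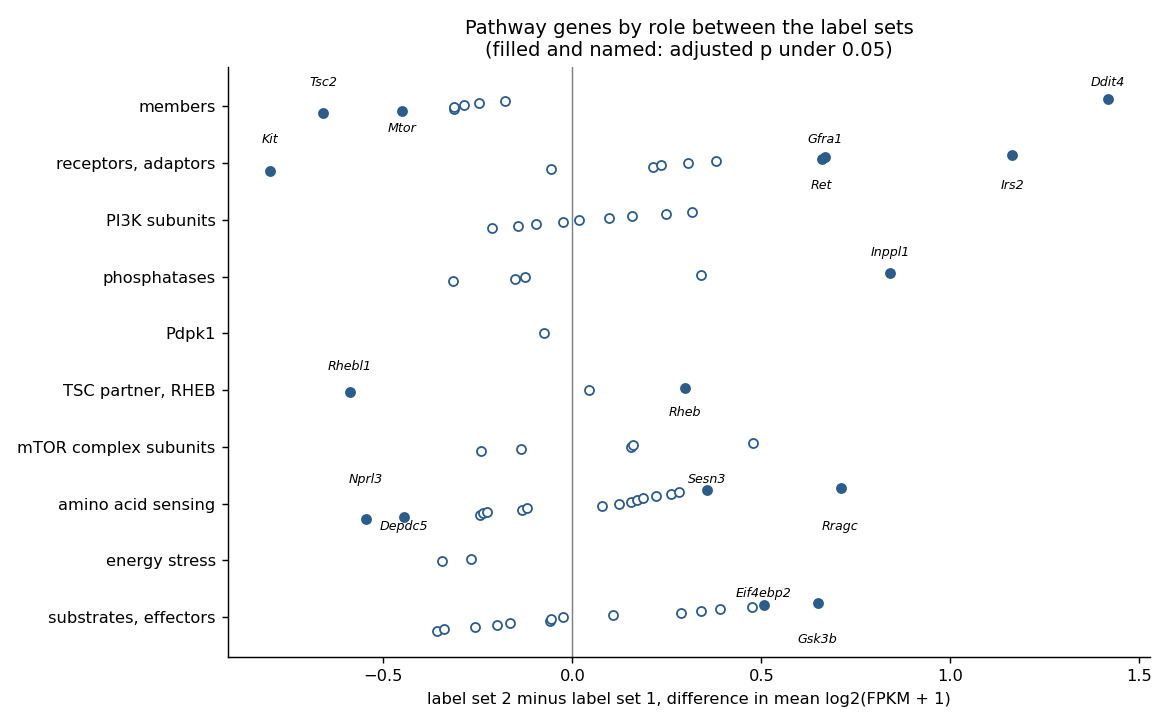
Log2 difference, label set 2 minus set 1 (horizontal axis), of the 8 genes and the 66 other pathway genes tested, 1 point per gene in rows by role, with filled points past an adjusted p of 0.05. Points past the threshold are named, with Irs2 at 1.163 and Tsc2 at -0.66, and the names of Ret and Sesn3 were added after their values were seen.

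Since Ddit4 differed most, 15 genes known to answer the same stresses (low oxygen, glucocorticoids and the unfolded protein response) were listed, and 14 were tested. Between ICSI and control, 0 of 14 passed by limma and 0 had an unadjusted p under 0.05, against 0% and 0.458% of all genes. Between the sets, 5 passed, 4 higher and 1 lower in set 2, where 10.2% and 5.76% of all genes did, and the median log2 difference was 0.11. Egln3, a prolyl hydroxylase induced by low oxygen, rose from 5.12 to 5.68 FPKM in set 1 to 9.44 to 14.9 FPKM in set 2. Ndrg1, also induced by low oxygen, rose from 8.46 to 15.0 FPKM to 16.6 to 27.0 FPKM. The glucocorticoid-induced genes Tsc22d3 and Klf9 rose from 53.1 to 65.2 FPKM to 76.7 to 108.8 FPKM and from 9.45 to 11.9 FPKM to 12.8 to 16.7 FPKM. Trib3, induced by the unfolded protein response, fell from 5.44 to 7.43 FPKM to 3.60 to 5.05 FPKM. The other 9 did not pass, and they included genes of each kind of stress. Their log2 differences among the low-oxygen genes were 0.22 for Vegfa, 0.51 for Bnip3, 1.32 for Ankrd37 and -0.09 for Pdk1 (not Pdpk1). They were -0.0026 for Fkbp5 and -0.04 for Per1 among the glucocorticoid genes, and -0.54 for Asns, -0.12 for Atf4 and -0.23 for Ddit3 among those of the unfolded protein response.

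The genes whose pattern over the 8 lines was most like that of Ddit4 and Tsc2 were found by the root mean square difference of centred log2(FPKM + 1) values. For Ddit4 they were P4ha1 (0.379), Pgk1 (0.386), Slc2a1 (0.407), Ldha (0.414) and Bhlhe40 (0.423), against a median of 0.896 over all genes. P4ha1 modifies collagen, Pgk1 and Ldha encode enzymes of glycolysis and lactate formation, Slc2a1 encodes a glucose transporter and Bhlhe40 a transcriptional repressor. For Tsc2 they were Trub2 (0.0510), Dzip1l (0.0609), Polr1a (0.0651), Snapc4 (0.0674) and 9930104L06Rik (0.0683), against a median of 0.409. The genes nearest to Ddit4 thus lay farther from it than those nearest to Tsc2 did, on a scale that grows with the spread of the gene. The 8 lines share the label sets, so a gene that differs between the sets is favoured by this measure.

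**Figure D4:**
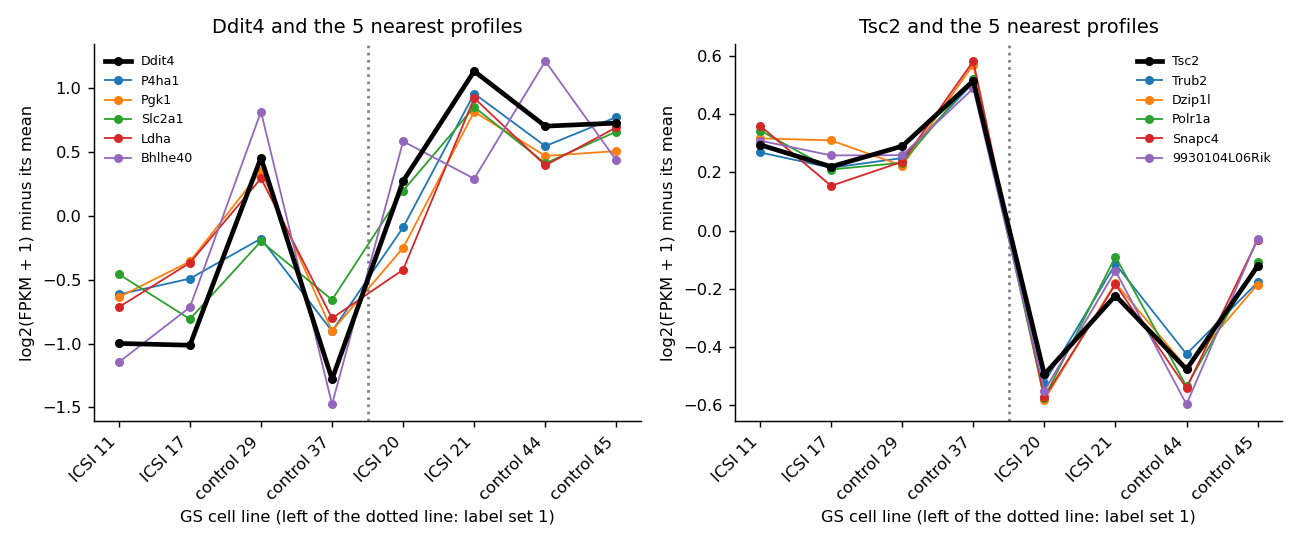
Centred log2(FPKM + 1) values (vertical axes) of Ddit4 and Tsc2 and of the 5 genes nearest to each over the 8 lines (horizontal axis), which have no order in time. Ddit4 and its neighbours other than Slc2a1 are lowest in control line 37, and Tsc2 and its neighbours are highest there and below their mean in all set 2 lines.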

How the data were processed

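The study sequenced RNA of GS cell lines as single reads of 76 bases. Per the study's methods, the authors trimmed reads with cutadapt, mapped them to mm10 with STAR and counted them with HTSeq on GENCODE release 25. The deposited values are FPKM, as the file says and the recovered reads bear out, where the methods speak of TPM. The submitters' processing notes list cutadapt 3.4, STAR 2.7.9a and HTSeq 0.13.5 for label set 1 and cutadapt 1.16, STAR 2.6.0c and HTSeq 0.11.2 for set 2. The deposited table also holds log2 fold changes and adjusted p-values of the authors' own DESeq2 comparison, which were not used. The labels and the methods name different library kits, so strandedness is uncertain.

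The 12000 genes whose mean reached 1 FPKM were tested with limma 3.58.1 (R 4.3.3) on log2(FPKM + 1) with a mean-variance trend and Benjamini-Hochberg adjustment over all of them at 0.05. Fold changes on this scale understate those of low genes. ICSI was compared with control by group alone. The comparison of the label sets had group as a covariate, and the interaction of group and set was fitted too. Single genes were also tested by exact permutation in both comparisons, without a covariate. Whole reads were recovered from FPKM, GENCODE release 21 exon lengths and the step of each library for 11784 of the 12000 genes (98.2%, within 0.02 of a whole number) and used in limma-voom as an alternative. Other pseudocounts, minimum levels, scalings and leaving out each line were tried, and the fits were tested on simulated data.

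The 8 genes and all lists were chosen with earlier results of these data known. Besides the 8, the text names Pik3ca, Pdpk1, Rheb and Mlst8, up to 10 pathway genes past the threshold by smallest p (or the 3 of largest difference where fewer than 3 pass), up to 5 passing genes of the Ddit4 stress list, and the 5 nearest profiles of the 2 genes with the widest range. Genes overlapping one of the 8 and marker genes named in the text fall outside this rule and were chosen after their values were seen. Some items of the pathway are not reported here, and the counts of pathway genes leave them out.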

Additional observations from a re-analysis of the deposited data

Results flagged for a closer look

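Rictor in control line 37 stood at 23.5 FPKM, whereas the other 3 control lines lay between 16.75 and 16.80 FPKM, which put the gap at 0.993 of the whole control range. ICSI line 11, also of label set 1, was at 21.8 FPKM and the remaining ICSI lines were at 13.2 to 17.7 FPKM. The ICSI minus control log2 difference of Rictor ran from -0.21 to 0.02 on leaving out each line. Of 16 groups of 4 lines examined, this was the 1 that stood out, and chance gives about 1 in 20.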

How the results depend on the processing

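Between ICSI and control, 0 of the 8 genes and 0 of the other pathway genes passed under any of 17 alternatives each. Over all genes, 1 passed with no filter on the mean. Differences near 0 changed sign. Within label set 1, Mtor was at -0.0070, and within set 2, Akt1 was at 0.015 and Rptor at -0.039. On leaving out each line, the log2 differences ran from -0.16 to 0.016 for Akt1, from -0.076 to 0.17 for Mtor, from -0.16 to 0.011 for Tsc1, from -0.28 to 0.052 for Tsc2, from -0.050 to 0.096 for Rptor and from -0.21 to 0.021 for Rictor. They ran from -0.16 to -0.029 for Akt2 and from -0.78 to -0.016 for Ddit4, which kept their sign in all 19 alternatives. Between the label sets, all 8 genes kept their direction in all 16 alternatives. Some alternatives could not change a log2 difference: the minimum level, the mean-variance trend and, for ICSI against control, adding the label set. Median-of-ratios scaling left the differences nearly unchanged. With no filter on the mean, which adds genes to the adjustment, 1255 genes in all, 5 other pathway genes and 1 of the 8 passed, against 1917, 13 and 3. Quantile normalization called 5 of the 8. On leaving out each line, 204 to 2693 genes in all, 2 to 18 other pathway genes and 0 to 5 of the 8 passed. Of the 8, 0 passed without control line 37 or without ICSI line 11, and 5 passed without ICSI line 21. The calls of Tsc2, Mtor and Ddit4 were kept in 14, 8 and 9 of 16 alternatives, and the cause was not tested. The interaction was not run on leaving out lines. With 4 lines per group, differences inside the intervals given cannot be told from 0. No paired analysis was possible because the ICSI and control lines share no line numbers.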

Other observations

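The 5 listed pathway genes that were too low to be tested were Irs1, Inpp4b, Prr5l, Ddit4l and Prkaa2, each a paralog of a gene that was tested, which the minimum of 1 FPKM makes the higher of the pair. These names were chosen after their values were seen. Irs1 averaged 0.466 FPKM and Irs2 10.6 FPKM over the 8 lines. Prkaa2 and Prkaa1, the alternative catalytic subunits of the energy sensor AMPK, averaged 0.800 and 3.01 FPKM. Ddit4l averaged 0.660 FPKM, against 26.7 FPKM for Ddit4, and Inpp4b averaged 0.0871 FPKM, against 3.64 FPKM for Inpp4a. Prr5l averaged 0.611 FPKM and Prr5, which like it encodes a subunit of mTORC2, averaged 43.0 FPKM.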
